A study of Mus musculus with 19 samples.

Results

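Cytochrome P450 genes of families 1 to 4 were followed across mouse hepatocytes of healthy and chronically injured liver. The members were all rows of the count tables whose Ensembl identifier mapped to a symbol of the form Cyp, a family number from 1 to 4, 1 subfamily letter and a number, which left out pseudogenes and symbols with a further letter. The rule found 75 of the 35274 genes in the tables: 3 of family Cyp1, 48 of Cyp2, 7 of Cyp3 and 17 of Cyp4, in 21 subfamilies. All mice were OPN-CreERT2;Rosa26R-mT/mG, a line in which the osteopontin promoter drives an inducible Cre recombinase that turns red fluorescent cells, and all cells that descend from them, green. The CTL group held native hepatocytes of control liver, RED samples were native tdTomato hepatocytes of liver with chronic injury, and GREEN samples were hepatocytes of the same kind of injured liver that the labels call DR-derived, with DR not spelled out. Each group had 5 samples, which CTL 1 to 5, RED 1 to 5 and GREEN 1 to 5 name. The labels do not give the agent and duration of the injury or the age and sex of the mice, nor do they say that each sample came from its own animal.

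P450 enzymes are haem proteins of the endoplasmic reticulum that insert oxygen into drugs, toxicants, steroids, fatty acids and bile acids, with electrons from the reductase Por and from cytochrome b5. Families Cyp1, Cyp2 and Cyp3 hold most of the drug-metabolising forms of liver, and family Cyp4 holds fatty acid and eicosanoid hydroxylases. Many are made by hepatocytes around the central vein, Cyp2f2 is made by those around the portal vein, and in mice several depend on sex through the pattern of growth hormone. Nuclear receptors (CAR, encoded by Nr1i3; PXR, encoded by Nr1i2; PPARA) and the aryl hydrocarbon receptor induce distinct members.

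Many members are close copies of their neighbours, so the sequences that let reads tell them apart are shown first. By the rule used here, 63 members were uncertain because their subfamily has another member, and 12 stood alone. As a finer measure, 46 members shared over 10% of their 31-base words with transcripts of other genes, 9 shared over 50%, and 6 shared none. The copies with the most distinct readings, chosen after their values were seen, were Cyp2a4 (chr7:26307169-26315088, forward strand) beside Cyp2a5 (chr7:26835305-26843548, forward strand), and Cyp2c67 (chr19:39608842-39649051, reverse strand) beside Cyp2c69 (chr19:39842814-39886799, reverse strand), positions in GRCm38. The coding sequences of Cyp2a4 and Cyp2a5 differ at 23 of 1482 positions, and those of Cyp2c67, Cyp2c68 and Cyp2c69 at 63 of 1473. The 60-base stretch of each set that holds the most differences is shown, in lower case, with the bases that differ within the set in capitals. For Cyp2a4 and Cyp2a5 it runs from coding base 596 to 655.
Cyp2a4: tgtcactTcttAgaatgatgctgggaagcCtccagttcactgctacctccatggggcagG
Cyp2a5: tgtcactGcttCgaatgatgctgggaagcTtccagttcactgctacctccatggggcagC
For the Cyp2c set it runs from coding base 1060 to 1119.
Cyp2c67: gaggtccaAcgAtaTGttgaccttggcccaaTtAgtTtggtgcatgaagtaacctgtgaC
Cyp2c68: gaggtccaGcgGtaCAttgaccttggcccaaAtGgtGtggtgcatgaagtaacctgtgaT
Cyp2c69: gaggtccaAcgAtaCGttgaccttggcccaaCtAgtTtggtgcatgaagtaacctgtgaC
Despite 58.9% of its 31-base words being shared, Cyp2a4 was read at 0.078 CPM in CTL 1, where Cyp2a5 was read at 118 CPM (CPM: counts in each 1000000 of the library after TMM scaling). Cyp2c69 was read at 1.08 CPM in CTL 4, where Cyp2c67 was read at 845 CPM. Low readings of one copy thus stood beside high readings of the other in the same library, although the levels of all such members are uncertain.

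Promoter windows of 250 bases before the start (RefSeq, GRCm38.p6) were found for 62 members and searched on both strands. The letters CAAAGTCCA, a binding element of the liver factor HNF4, were in the windows of 8 members (12.9%) and of 0.451% of 27025 genes. The 8 were Cyp2c40, Cyp2c65, Cyp2c67, Cyp2c68, Cyp2c69, Cyp2c70, Cyp3a11 and Cyp3a16, several of which are copies of one another. The letters TATAAA were in the windows of 24 members (38.7%) and of 14.3% of all genes, and GTTAAT (part of the HNF1 element) was in 9 members (14.5%) and 7.49% of genes. GCGTG, the core element of the aryl hydrocarbon receptor, was in 12 members (19.4%) and 30.9% of genes, and TTCNNNGAA (a STAT5 element) in 4 members (6.45%) and 8.13% of genes. Overlaps between motifs were not removed. The 180 bases before the start of 3 members are shown, with CAAAGTCCA in capitals, because these members are described below. They lie at chr19:39649043-39649222, chr19:40187287-40187466 and chr5:145879855-145880034, all on the reverse strand.
Cyp2c67: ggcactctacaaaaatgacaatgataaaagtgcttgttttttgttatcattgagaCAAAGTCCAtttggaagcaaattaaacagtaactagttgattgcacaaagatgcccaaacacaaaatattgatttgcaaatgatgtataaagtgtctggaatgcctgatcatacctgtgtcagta
Cyp2c70: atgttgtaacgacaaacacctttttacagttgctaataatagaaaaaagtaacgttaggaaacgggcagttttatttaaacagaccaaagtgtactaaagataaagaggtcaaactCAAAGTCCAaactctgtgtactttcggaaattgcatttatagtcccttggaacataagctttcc
Cyp3a11: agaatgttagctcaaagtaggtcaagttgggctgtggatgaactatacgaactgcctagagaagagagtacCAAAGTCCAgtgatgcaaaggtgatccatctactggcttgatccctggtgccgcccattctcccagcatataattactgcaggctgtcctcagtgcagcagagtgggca
The element begins 125, 64 and 109 bases before the start of Cyp2c67, Cyp2c70 and Cyp3a11. Hnf4a RNA was 729, 599, 783, 743 and 606 CPM in CTL 1 to 5 and 488, 501, 412, 149 and 264 CPM in GREEN 1 to 5, and was lower in GREEN (log2 fold change -1.0, standard error 0.29, adjusted p = 0.011). A match of letters is a description of the window and no measure of binding.

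The 10 libraries of experiment 1 (poly(A) selection) held 22442607 to 34216824 estimated counts, and the 9 of experiment 2 (ribosomal RNA removal) held 38061859 to 44177627. The comparisons used 15 of these, 1 a sample, with 2 a group from experiment 1 and 3 a group from experiment 2. The 12 hepatocyte markers summed to 95344 to 164251 CPM in CTL, 63080 to 107954 in RED and 33989 to 72024 in GREEN, with none at 0, and 10 of 12 fell in GREEN versus CTL. All 12 biliary, 12 endothelial and 12 stellate markers rose in that comparison, and the biliary sum was 540.4, 767, 3190, 8522 and 4334 CPM in GREEN 1 to 5. GREEN 3, GREEN 4 and GREEN 5 stand apart in this. GREEN 3 and GREEN 4 carry the same library code, colour included, which leaves it unstated whether they are separate animals. Elsewhere a repeated code went with a repeated title, and was taken as 1 sample with a library of each kit. GREEN 3 and GREEN 4 have different titles, and the comparisons count each as a sample of its own. The summed level of 4 Y-linked genes split the libraries into high (117 to 198 CPM: CTL 1, CTL 4, CTL 5, RED 4, RED 5, GREEN 3 and GREEN 4) and low (1.34 to 16.7 CPM: the other 8), a split that crosses all groups. RED 5 (156 CPM) and GREEN 5 (2.97 CPM) share a code number and are on opposite sides of it.

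The summed level of all members was 16413 to 28636 CPM in CTL, 11419 to 19032 in RED and 4535 to 11443 in GREEN. Per kilobase of exon, Cyp2e1 had the highest mean in each group, at 1652, 1028 and 584 CPM per kb in CTL, RED and GREEN. It was followed in CTL by Cyp2f2 (1125), Cyp2c70 (487), Cyp2d26 (416) and Cyp3a11 (405), and in GREEN by Cyp3a11 (289.6) and Cyp2f2 (281). Mean levels over 100 CPM were reached by 33 members in CTL, 24 in RED and 20 in GREEN. The filter on low counts kept 59 members for testing. Of the 16 others, 14 stayed at or under 1 CPM in every library, Cyp2c66, Cyp2j7 and Cyp2j12 among them with no counts at all, and Cyp2g1 and Cyp3a16 exceeded 1 CPM.

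More members passed the test in GREEN versus CTL than in the other comparisons. In GREEN versus CTL 29 of 59 tested members were lower, beside 18.6% of all 16387 genes tested, and 6 were higher, beside 29.5%. The median log2 fold change of the tested members was -1.27, beside 0.11 for all genes. In RED versus CTL 3 members were lower (Cyp2j6, Cyp2u1 and Cyp4v3; 1.99% of all genes) and 4 were higher (Cyp1b1, Cyp4b1, Cyp4f16 and Cyp4f18; 14.2% of all genes), with a median of -0.48 beside 0.05. In GREEN versus RED 5 were lower (Cyp2a12, Cyp2c70, Cyp2d40, Cyp2r1 and Cyp4v3; 3.22% of all genes) and 1 was higher (Cyp2s1; 9.68% of all genes), with a median of -0.77 beside -0.02. All values of GREEN lay below all values of CTL for 14 tested members, beside 9.59% of all genes tested, and above them for 5, beside 21%. RED and CTL did not overlap for 5 members, beside 12.0% of all genes, and GREEN and RED for 4, beside 8.91%. The comparisons share samples, so their counts are not independent. Since these are bulk samples, fewer hepatocytes in a sample and less P450 RNA per hepatocyte cannot be told apart.

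**Figure D1:**
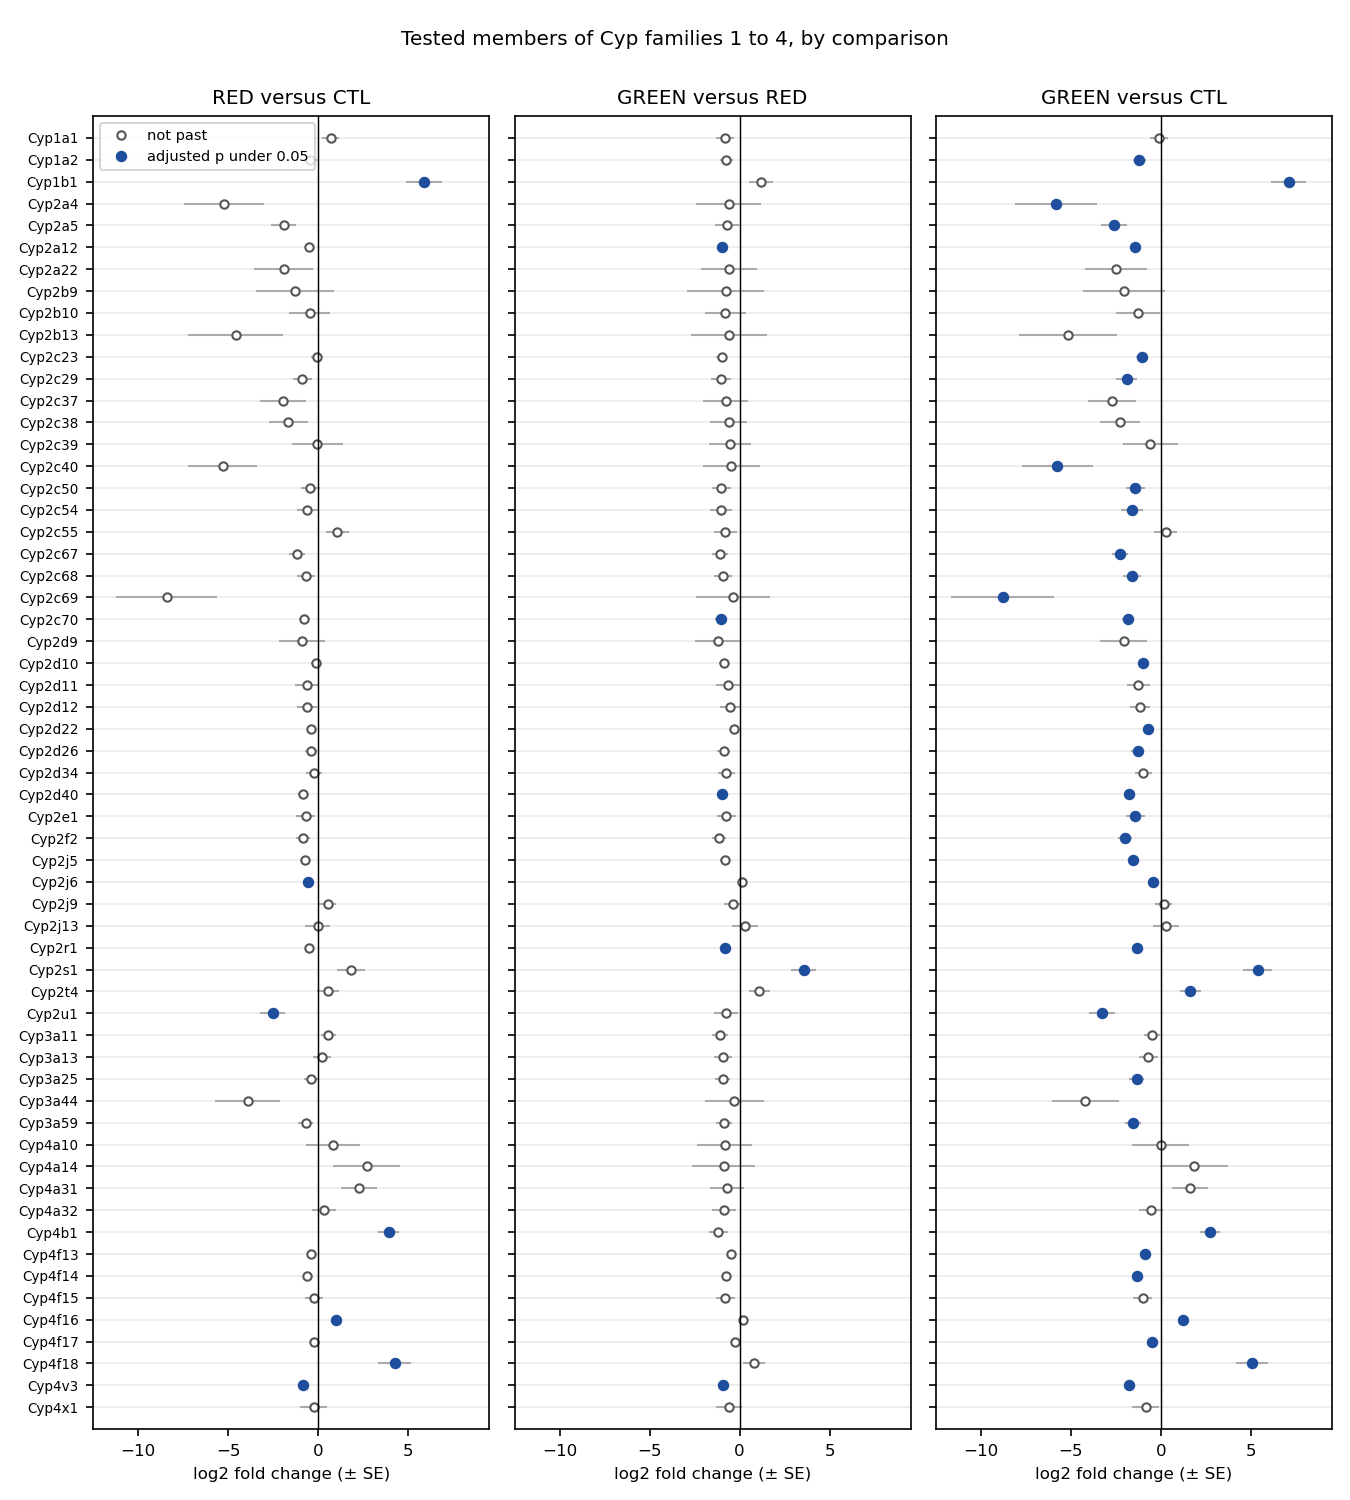
Log2 fold change of the 59 tested members (horizontal axis, point with 1 standard error) in the 3 comparisons, 5 samples a group; filled points passed an adjusted p of 0.05. For GREEN versus CTL 29 filled points lie left of 0 and 6 lie right of it, whereas RED versus CTL has 3 and 4 and GREEN versus RED 5 and 1.

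How far members fell depended on the scaling of the libraries. With libraries scaled by their totals the median of all genes moved to 0.33, 0.42 and 0.83 in RED versus CTL, in GREEN versus RED and in GREEN versus CTL, and members were lower and higher in 1 and 4, 1 and 2, and 15 and 6 cases. Of all genes 0.58% and 17.2%, 0.244% and 26.2%, and 2.85% and 61.5% were lower and higher in the same comparisons. With libraries scaled by the hepatocyte markers the median of all genes moved to 0.56, 0.94 and 1.59, and members were lower and higher in 1 and 5, 0 and 6, and 4 and 14 cases. Of all genes 0.269% and 15.5%, 0.0061% and 53.8%, and 0.506% and 83.5% were then lower and higher. The median of the tested members in GREEN versus CTL was then 0.06. The 4 members still lower on the hepatocyte marker scale were Cyp2a4, Cyp2c40, Cyp2c69 and Cyp2u1. For each of them the CTL samples were split along the Y-linked level, as described below. Left out singly, libraries moved the members lower in GREEN versus CTL between 22 (without CTL 2, GREEN 4 or GREEN 5) and 32 (without CTL 5), and without GREEN 3, GREEN 4 and GREEN 5 together 10 members were lower (2.73% of all genes) and 3 higher (9.87%). Of all genes 3751 of 16638 were lower without CTL 2, 2421 of 16619 without GREEN 4 and 2316 of 16601 without GREEN 5. Without CTL 5 they were 3018 of 16714. Within experiment 1 alone 25 were lower (18.3% of all genes) and within experiment 2 alone 14 (4.85%). The members lower in GREEN versus RED were 0 without GREEN 3 or GREEN 5, 1 without RED 1, RED 5 or GREEN 4, 3 without CTL 5 or RED 4, 11 without GREEN 1 and 12 without GREEN 2. Of all genes 91 of 16520 and 41 of 16601 were lower without GREEN 3 and GREEN 5. Without RED 1, RED 5 and GREEN 4 they were 55 of 16767, 217 of 16727 and 60 of 16619. Without CTL 5 and RED 4 they were 254 of 16714 and 387 of 16696, and without GREEN 1 and GREEN 2 1338 of 16536 and 995 of 16534. Leaving out GREEN 3 or GREEN 4 leaves 1 library of the code they share. The members lower in this comparison were 21 within experiment 1 alone, where 14.5% of all genes were lower, and 0 within experiment 2 alone, where 0.00595% were, and 0 without GREEN 3, GREEN 4 and GREEN 5 together, where 0.00579% were. With the 3 pairs of experiment 2 as a replicate block 10 members were lower (5.9% of all genes), Cyp1a2, Cyp2c29, Cyp2d10, Cyp2j5 and Cyp3a11 among them (adjusted p 0.029 to 0.046), and Cyp4v3 was not (adjusted p = 0.05003). The members lower in RED versus CTL were 8 without CTL 5 or RED 1, 6 without GREEN 1 and 5 without GREEN 4, and 12 without GREEN 3, GREEN 4 and GREEN 5 together (5.98% of all genes). Of all genes 311 of 16714 were lower without CTL 5 and 822 of 16767 without RED 1. Without GREEN 1 and GREEN 4 they were 363 of 16536 and 278 of 16619. Within experiment 2 alone 2 members were higher in RED versus CTL (6.73% of all genes).

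**Figure D2:**
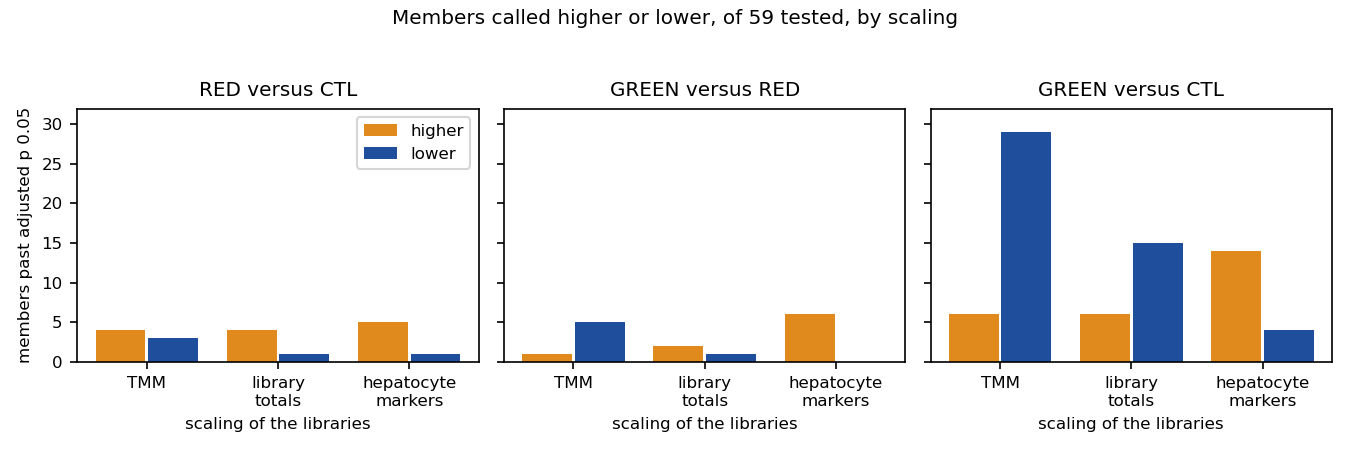
Number of members past an adjusted p of 0.05 (vertical axis), higher (orange) or lower (blue), with libraries scaled by TMM, by their totals or by 12 hepatocyte markers. For GREEN versus CTL the lower members go from 29 to 15 to 4 and the higher ones from 6 to 6 to 14.

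By liver zone, 7 of 12 listed members were lower in GREEN versus CTL, beside 18.6% of all genes tested. Of 11 pericentral members 6 were lower in GREEN versus CTL (Cyp1a2, Cyp2a5, Cyp2c29, Cyp2c50, Cyp2c54 and Cyp2e1; median -1.42), and the single periportal member, Cyp2f2, was lower too. None of the 12 passed in RED versus CTL or GREEN versus RED, where the pericentral medians were -0.48 and -0.83. With the 3 pairs of experiment 2 as a replicate block, Cyp1a2 (log2 fold change -0.79, adjusted p = 0.029), Cyp2c29 (log2 fold change -1.20, adjusted p = 0.041) and Cyp3a11 (log2 fold change -1.09, adjusted p = 0.046) were lower in GREEN versus RED. Within experiment 1 alone, where 14.5% of all genes were lower, these and Cyp2f2 were lower too (log2 fold change -2.55 to -1.63, adjusted p 0.013 to 0.034). Cyp2e1, which oxidises ethanol and paracetamol (chr7:140763739-140774987, forward strand), was at 2569, 3947, 6098, 3467 and 1747 CPM in CTL 1 to 5, 4563, 2947, 1424, 902 and 1253 in RED 1 to 5, and 2544, 1149, 599, 505 and 1510 in GREEN 1 to 5. The groups overlapped, CTL 3 was highest and GREEN 4 lowest, and the fall in GREEN versus CTL was near the threshold (log2 fold change -1.42, standard error 0.55, adjusted p = 0.044). It did not pass without CTL 2, 3 or 4, RED 2 or 3 or GREEN 2, 3, 4 or 5 (log2 fold change -1.50 to -1.12, adjusted p 0.0504 to 0.1). Cyp1a2, which oxidises caffeine and aromatic amines, was at 323, 346, 357, 349 and 237 CPM in CTL 1 to 5, 182, 119.9, 402, 262 and 244 in RED 1 to 5, and 104, 318, 161, 90.3 and 76.1 in GREEN 1 to 5. GREEN 2 lay within the range of CTL and the other 4 GREEN samples below it (log2 fold change -1.20, standard error 0.37, adjusted p = 0.017). The call ended without GREEN 4 or 5 (log2 fold change -1.06 to -1.0, adjusted p 0.055 to 0.058). Cyp2c29, an epoxygenase of fatty acids and a CAR target, was at 789, 1461, 1920, 925 and 653 CPM in CTL 1 to 5, 616, 282, 1185, 477 and 623 in RED 1 to 5, and 214, 899, 219, 143 and 157 in GREEN 1 to 5. GREEN 2 was the one GREEN sample inside the CTL range (log2 fold change -1.91, standard error 0.57, adjusted p = 0.013). Cyp2a5, which hydroxylates coumarin, fell by 2.63 on the log2 scale in GREEN versus CTL (adjusted p = 0.0085) and Cyp2c54 by 1.61 (adjusted p = 0.044). Cyp2a5 was at 117.5, 363.8, 364.6, 56.8 and 34.4 CPM in CTL 1 to 5 and 13.8 to 65.6 in GREEN. Cyp2c54 was at 88.0, 202.5, 194.5, 30.1 and 47.4 in CTL 1 to 5 and 10.6 to 84.2 in GREEN. Both, and Cyp2c50, were highest in CTL 2 and CTL 3, which were low in Y-linked RNA. For Cyp2a5 and Cyp2c54, CTL 4 and CTL 5 lay within the range of GREEN. Cyp2a5 shares 54.56% of its 31-base words. The Cyp2c54 call ended without CTL 2 or 3, RED 3 or GREEN 1, 3, 4 or 5 (log2 fold change -1.64 to -1.26, adjusted p 0.054 to 0.11). Cyp1a2, Cyp2a5, Cyp2c29, Cyp2c54 and Cyp2e1 did not pass without GREEN 3, GREEN 4 and GREEN 5 together (log2 fold change -2.23 to -0.67, adjusted p 0.23 to 0.54) or within experiment 2 alone (log2 fold change -1.99 to -0.64, adjusted p 0.13 to 0.4). In those settings Cyp2c29 was at -0.97 and -1.12.

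Cyp2f2, a periportal enzyme that activates naphthalene (chr7:27119909-27133660, forward strand), was at 3013, 994, 1147, 3315 and 2920 CPM in CTL 1 to 5, 1553, 694, 908, 1649 and 1468 in RED 1 to 5, and 559, 771, 699.6, 382 and 434 in GREEN 1 to 5. All GREEN samples lay below all CTL samples, and the CTL samples themselves were split, with CTL 2 and CTL 3, both low in Y-linked RNA, the lowest. It fell in GREEN versus CTL (log2 fold change -2.01, standard error 0.40, adjusted p = 0.0012), though not without GREEN 3, GREEN 4 and GREEN 5 (log2 fold change -1.78, adjusted p = 0.082), and its change in RED versus CTL did not pass (log2 fold change -0.85, standard error 0.39, adjusted p = 0.18). In GREEN versus RED it did not pass (log2 fold change -1.16, adjusted p = 0.066). It did with DESeq2 (adjusted p = 0.017), experiment 1 alone (0.022), the Y-linked level as a covariate (0.044), limma-voom (0.048) and the experiment 1 library of samples with 2 (0.0496). Of genes of the zones outside the family, 3 of 15 pericentral genes (Glul, Gulo and Slc1a2) and 8 of 15 periportal genes (Cps1 and Pck1 among them) were lower in GREEN versus CTL, beside 18.6% of all genes. Nkd1 and Cdh1 were higher, beside 29.5% of all genes. Axin2 (log2 fold change 0.49, adjusted p = 0.36) and Lgr5 (log2 fold change -0.36, adjusted p = 0.6), Wnt target genes on the pericentral list, did not pass. They do not stand for the whole list, on which Glul, Gulo and Slc1a2 were lower and Nkd1 was higher. On the hepatocyte marker scale none of the 12 zone members was lower in GREEN versus CTL, with Cyp2f2 at -0.55 and the pericentral median at -0.21.

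**Figure D3:**
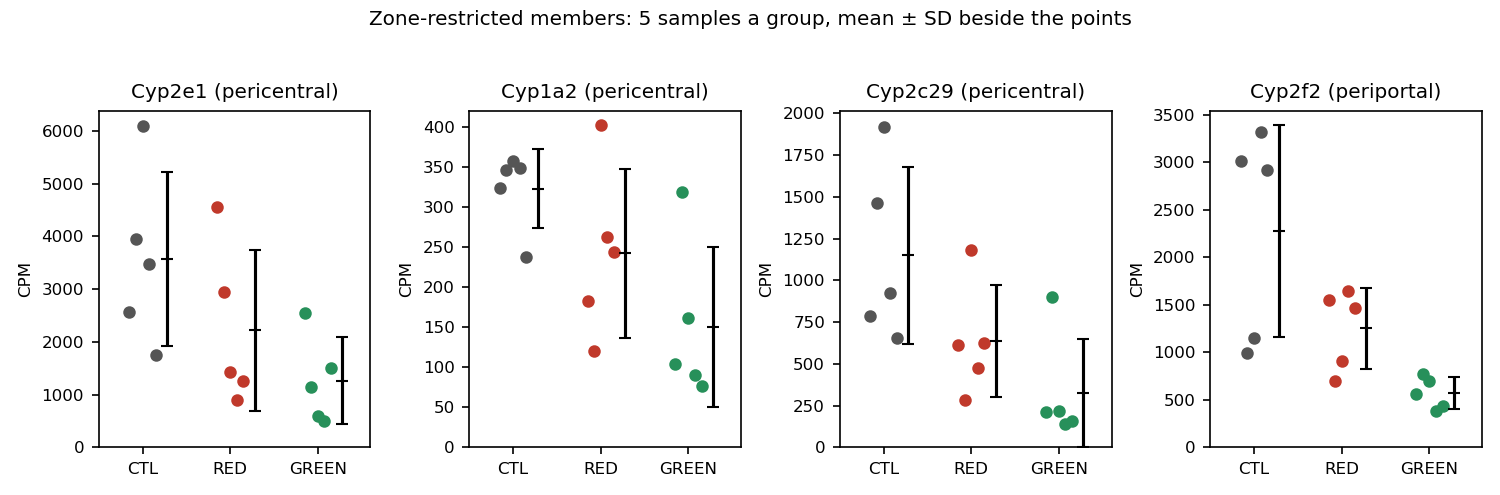
CPM (vertical axis, from 0) of 3 pericentral members and the periportal Cyp2f2 in each of 5 samples a group, with the mean and SD beside the points. The GREEN mean is the lowest of the 3 groups for each, at 1261 CPM for Cyp2e1, 150.0 for Cyp1a2, 326 for Cyp2c29 and 569 for Cyp2f2.

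In family Cyp2 22 of 38 tested members were lower in GREEN versus CTL (median -1.50), and 16 of the 30 that are on neither zone list (median -1.40). Of all genes tested 18.6% were lower, with a median of 0.11. Cyp2c70, which makes muricholic acids from other bile acids, was at 738, 679.9, 817, 1545 and 1043 CPM in CTL 1 to 5, 607, 335, 423, 681 and 763 in RED 1 to 5, and 279, 353, 328, 194 and 174 in GREEN 1 to 5. GREEN lay wholly below CTL, RED overlapped both, and the gene shares no 31-base word with another gene. It was lower in GREEN versus CTL (log2 fold change -1.84, standard error 0.31, adjusted p = 0.00041) and in GREEN versus RED (log2 fold change -1.06, standard error 0.31, adjusted p = 0.039). The second call ended without CTL 5, RED 1, 4 or 5 or GREEN 3, 4 or 5 (log2 fold change -1.17 to -0.91, adjusted p 0.056 to 0.1). Cyp2a12, a steroid hydroxylase, was at 597, 404, 506, 489 and 409 CPM in CTL 1 to 5, 461, 276, 296, 329.5 and 333 in RED 1 to 5, and 231, 247, 153, 104 and 142 in GREEN 1 to 5. Each GREEN sample lay below each RED sample, and each RED sample below the mean of CTL (log2 fold change -1.47, standard error 0.24, adjusted p = 0.00033 in GREEN versus CTL; log2 fold change -0.97, standard error 0.24, adjusted p = 0.021 in GREEN versus RED). The call in GREEN versus RED ended without RED 1 or GREEN 3 or 5 (log2 fold change -0.93 to -0.87, adjusted p 0.052 to 0.061). Cyp2j5, an epoxygenase of arachidonic acid, was at 854 ± 201 CPM, 519 ± 174 CPM and 286 ± 102 CPM (mean ± SD, n = 5) in CTL, RED and GREEN, and was lower in GREEN versus CTL (log2 fold change -1.54, standard error 0.28, adjusted p = 0.00065). Cyp2r1, the main vitamin D hydroxylase of liver, was at 12.7, 13.2, 13.3, 14.0 and 13.2 CPM in CTL 1 to 5, 6.83, 8.72, 9.84, 11.7 and 10.2 in RED 1 to 5, and 6.06, 8.51, 6.18, 3.94 and 2.74 in GREEN 1 to 5. CTL values lay within 12.7 to 14.0 CPM, and no RED or GREEN sample reached them. It was lower in GREEN versus CTL (log2 fold change -1.34, standard error 0.22, adjusted p = 0.00034) and in GREEN versus RED (log2 fold change -0.83, standard error 0.22, adjusted p = 0.027), the latter not without RED 5 or GREEN 3, 4 or 5 (log2 fold change -0.86 to -0.69, adjusted p 0.058 to 0.072).

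Of the 8 Cyp2d members, 4 were lower in GREEN versus CTL (Cyp2d10, Cyp2d22, Cyp2d26 and Cyp2d40), beside 18.6% of all genes tested. Cyp2d40 was at 77.0 ± 18.98 CPM in CTL, 43.8 ± 14.5 CPM in RED and 22.1 ± 9.25 CPM in GREEN (log2 fold change -1.78, standard error 0.29, adjusted p = 0.00028 in GREEN versus CTL; log2 fold change -0.96, standard error 0.28, adjusted p = 0.042 in GREEN versus RED). The second call ended without CTL 1 or 5, RED 1, 2 or 5 or GREEN 3, 4 or 5 (log2 fold change -1.01 to -0.80, adjusted p 0.055 to 0.11). Cyp2d10, which shares 50.23% of its 31-base words, was at 687, 593, 614, 676 and 686 CPM in CTL 1 to 5 and 564, 407, 261, 156 and 274 CPM in GREEN 1 to 5 (log2 fold change -1.0, standard error 0.29, adjusted p = 0.011). Every GREEN sample was below every CTL sample, GREEN 1 only just.

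Cyp2j6 and Cyp2u1 were lower in RED as well as in GREEN. Cyp2j6 was at 79.2, 68.2, 82.9, 86.9 and 84.4 CPM in CTL 1 to 5, 59.8, 53.5, 46.9, 53.1 and 54.4 in RED 1 to 5, and 49.4, 45.0, 59.4, 88.7 and 60.6 in GREEN 1 to 5. RED lay wholly below CTL (log2 fold change -0.59, standard error 0.13, adjusted p = 0.0064), and GREEN 4 was above every CTL sample. The call in RED versus CTL ended with library totals (log2 fold change -0.30, adjusted p = 0.32) and with the hepatocyte marker scale (log2 fold change -0.067, adjusted p = 0.88). It ended within experiment 1 alone too (log2 fold change -0.50, adjusted p = 0.067). Cyp2j6 was lower in GREEN versus CTL (log2 fold change -0.43, standard error 0.13, adjusted p = 0.017) but not without GREEN 5 (log2 fold change -0.37, adjusted p = 0.065), and its direction turned with libraries scaled by totals (0.33) or by hepatocyte markers (1.14). Cyp2u1, a hydroxylase of long-chain fatty acids, was at 239.8, 13.4, 5.12, 57.3 and 221 CPM in CTL 1 to 5, 3.82, 29.1, 13.2, 32.6 and 8.44 in RED 1 to 5, and 26.2, 13.8, 18.2, 2.44 and 2.21 in GREEN 1 to 5. CTL 1 and CTL 5 were the highest, and with CTL 4, also high in Y-linked RNA, they exceeded every injured sample. CTL 2 and CTL 3, both low in Y-linked RNA, lay within the range of the injured samples. Its readings also depended on the library kit: in the 4 samples with a library of each kit, the log2 ratio of experiment 1 to experiment 2 was -1.59 to -2.36, the lowest of all members in each sample, while 44 to 50 of the 46 to 51 expressed members agreed within 2-fold. The difference was log2 fold change -2.53, standard error 0.69, adjusted p = 0.021 in RED versus CTL and log2 fold change -3.27, standard error 0.71, adjusted p = 0.0022 in GREEN versus CTL, with experiment as a term. The call in RED versus CTL ended without CTL 4 or RED 3 (log2 fold change -2.33 to -2.0, adjusted p 0.058 to 0.11). It also ended with the hepatocyte marker scale, experiment 2 alone, the experiment 1 library of samples with 2, a replicate block by title number and limma-voom (log2 fold change -2.67 to -1.86, adjusted p 0.056 to 0.25). In GREEN versus CTL it ended with limma-voom (log2 fold change -2.31, adjusted p = 0.057) and without GREEN 3, GREEN 4 and GREEN 5 (log2 fold change -3.02, adjusted p = 0.12).

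A further pattern among members followed the Y-linked level of the library. Cyp2d9, the male-predominant testosterone hydroxylase, was at 1355, 29.4, 21.6, 1277 and 1177 CPM in CTL 1 to 5, 65.8, 187, 16.3, 888 and 914 in RED 1 to 5, and 172, 13.4, 432, 279 and 24.0 in GREEN 1 to 5. Its highest values were in the libraries high in Y-linked RNA (CTL 1, CTL 4, CTL 5, RED 4 and RED 5), and within CTL they were 1177 CPM or more, against 29.4 CPM or less in CTL 2 and CTL 3. Among the libraries high in Y-linked RNA, GREEN 3 and GREEN 4 lay below RED 4 and RED 5, and these below the 3 CTL libraries. None of the 3 comparisons passed for Cyp2d9 (adjusted p 0.21 to 0.72).

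Members known as female-predominant were high in the CTL libraries with little Y-linked RNA and much lower in the injured libraries with little Y-linked RNA. Cyp2c69 was at 0.312, 1344, 1721, 1.08 and 0.148 CPM in CTL 1 to 5, 1.57, 0.286, 10.8, 0.048 and 0.156 in RED 1 to 5, and 0.538, 9.41, 0, 0.079 and 0.646 in GREEN 1 to 5. CTL 2 and CTL 3 reached at least 1344 CPM, and no RED or GREEN sample exceeded 10.8 CPM, although RED 1, RED 2, RED 3, GREEN 1, GREEN 2 and GREEN 5 were low in Y-linked RNA too. Cyp2a4, a steroid hydroxylase, was at 0.078, 494, 756, 0.228 and 0.089 CPM in CTL 1 to 5, 4.33, 6.78, 30.2, 0.932 and 2.18 in RED 1 to 5, and 5.25, 21.4, 0.222, 0.591 and 2.84 in GREEN 1 to 5. It followed the same order, with RED 3 and GREEN 2 the highest injured samples. Cyp2c40 was at 3.196, 694, 857, 2.39 and 3.45 CPM in CTL 1 to 5, at most 39.8 CPM in RED and at most 36.6 CPM in GREEN. Cyp3a16, which the filter left untested, was at 0.078, 285, 674, 0.285 and 0.059 CPM in CTL 1 to 5 and at most 0.552 CPM in RED. These genes passed in GREEN versus CTL with wide errors, Cyp2c69 with log2 fold change -8.79, standard error 2.85, adjusted p = 0.021, Cyp2a4 with log2 fold change -5.84, standard error 2.29, adjusted p = 0.048 and Cyp2c40 with log2 fold change -5.75, standard error 1.99, adjusted p = 0.028. The CTL values rest on CTL 2 and CTL 3. The call of Cyp2c69 ended without CTL 2 or GREEN 4 or 5 (log2 fold change -8.52 to -8.23, adjusted p 0.051 to 0.13). That of Cyp2a4 ended without CTL 2 or 3, RED 1, 2, 3 or 5 or GREEN 1, 3, 4 or 5 (log2 fold change -5.88 to -3.74, adjusted p 0.056 to 0.21), and that of Cyp2c40 without CTL 2 or 3 or GREEN 1, 3, 4 or 5 (log2 fold change -5.59 to -3.83, adjusted p 0.051 to 0.14). All 3 calls also ended with limma-voom, at log2 fold change -5.79, adjusted p = 0.29 for Cyp2c69, log2 fold change -1.20, adjusted p = 0.74 for Cyp2a4 and log2 fold change -3.11, adjusted p = 0.33 for Cyp2c40. They ended too within experiment 1 alone (adjusted p 0.055 to 0.099), within experiment 2 alone (adjusted p 0.19 to 0.3), with a replicate block by title number (adjusted p 0.094 to 0.57) and without GREEN 3, GREEN 4 and GREEN 5 (adjusted p 0.3 to 0.45). With the summed Y-linked level as a covariate, Cyp2c69 was also lower in RED versus CTL (log2 fold change -7.15, adjusted p = 0.0061).

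Cyp2b9 also followed the Y-linked level, with higher injured values than Cyp2c69 and Cyp2a4. Cyp2b9, a female-predominant steroid hydroxylase, was at 0.442, 924, 1083, 0.228 and 0.797 CPM in CTL 1 to 5, 294, 144, 423, 0.287 and 3.38 in RED 1 to 5, and 111, 346, 0.222, 0.335 and 79.9 in GREEN 1 to 5. The 8 libraries low in Y-linked RNA were its 8 highest, at 79.9 CPM or more, and no other library exceeded 3.38 CPM. Cyp2b9 passed in no comparison (adjusted p 0.49 to 0.84), nor did Cyp2b13 (0.13 to 0.88) or Cyp3a44 (0.076 to 0.92). Cyp2b13 was at 185 and 145 CPM in CTL 2 and CTL 3 and at most 37.6 CPM in RED and 27.6 CPM in GREEN. In all, 3 of 6 tested female-predominant members were lower in GREEN versus CTL, beside 18.6% of all genes tested, and none passed in the other comparisons. Of the 3, Cyp2c40 shares 72.59% of its 31-base words, 46.58% with Cyp2c69. Cyp2c69 shares 64.94%, 57.73% with Cyp2c40, so these may not be separate readings. Cyp2c67, the near copy of Cyp2c69, went the other way in CTL, at 426, 188, 245, 845 and 516 CPM in CTL 1 to 5, and was at 118, 55.9, 126, 84.7 and 57.4 CPM in GREEN 1 to 5 (log2 fold change -2.28, standard error 0.46, adjusted p = 0.0013). CTL 2 and CTL 3 were its lowest CTL samples and still above every GREEN sample. Of 2 regulators of sex-dependent P450 genes, the female-predominant Cux2 was at 1.92, 93.2, 64.4, 2.00 and 2.12 CPM in CTL 1 to 5, 4.20, 4.36, 13.4, 3.25 and 1.91 in RED 1 to 5, and 6.20, 13.9, 6.79, 4.12 and 6.75 in GREEN 1 to 5. The male-predominant repressor Bcl6 was at 84.8, 12.2, 9.05, 85.9 and 57.0 CPM in CTL 1 to 5. Cux2 was highest in CTL 2 and CTL 3, as were the female-predominant members, and Bcl6 was lowest there within CTL. Neither passed a comparison. The part of sex in these levels was not tested, since the labels do not give it.

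**Figure D4:**
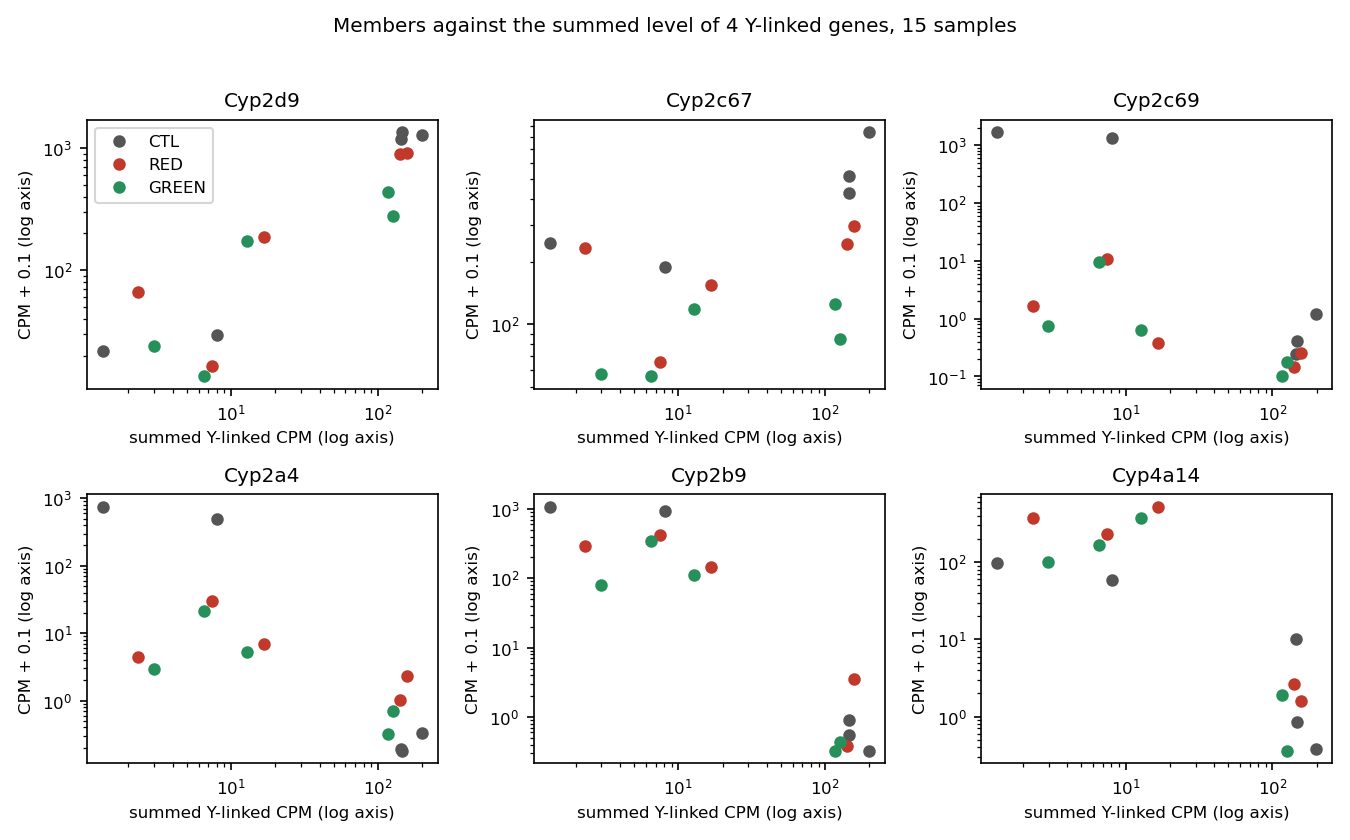
CPM plus 0.1 of 6 members (vertical log axis) against the summed CPM of 4 Y-linked genes (horizontal log axis) in 15 samples, coloured by group. Cyp2d9 is highest at the right, and Cyp2c69 and Cyp2a4 at the left are at 494 CPM or more in 2 CTL samples, with RED and GREEN at most 30.2 CPM.

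With the Y-linked covariate, 6 members were lower in RED versus CTL (Cyp2b13, Cyp2c69, Cyp2d22, Cyp2j5, Cyp2j6 and Cyp2u1, without Cyp4v3), 16 in GREEN versus RED and 35 in GREEN versus CTL, beside 3.39%, 8.14% and 21.3% of all genes. The members higher numbered 4, 1 and 6, beside 15.3%, 12.1% and 30.8%.

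Family Cyp3 was led by Cyp3a11, the main drug-oxidising form and a PXR target, at 2022, 1863, 1448, 2239 and 2741 CPM in CTL 1 to 5, 2617, 1033, 3827, 3383 and 4107 in RED 1 to 5, and 761, 3043, 1670, 1204 and 698 in GREEN 1 to 5. RED 3, RED 4 and RED 5 were above every CTL sample, GREEN ranged more widely than CTL, and no comparison passed (adjusted p 0.11 to 0.46). In other settings Cyp3a11 was lower in GREEN versus RED. These were experiment 1 alone (log2 fold change -2.08, adjusted p = 0.034), the block of the experiment 2 pairs (-1.09, adjusted p = 0.046) and DESeq2 (-1.10, adjusted p = 0.046). Of the 5 tested Cyp3 members Cyp3a25 and Cyp3a59 were lower in GREEN versus CTL, by 1.34 (adjusted p = 0.018) and 1.54 (adjusted p = 0.012) on the log2 scale. Of all genes tested 18.6% were lower in this comparison. Of 5 CAR and PXR targets only Cyp2c29 was lower in that comparison, and Cyp2b10, the classic CAR target, was at 4.24, 93.0, 54.9, 1.48 and 8.26 CPM in CTL 1 to 5, 17.8, 18.98, 87.2, 5.69 and 9.57 in RED 1 to 5, and 14.5, 72.3, 1.86, 1.38 and 5.90 in GREEN 1 to 5. Its highest values were in libraries low in Y-linked RNA, and it did not pass (adjusted p 0.41 to 0.84).

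In family Cyp4 the fatty acid hydroxylases of subfamily Cyp4a, targets of PPARA, spread widely within each group. Cyp4a14 was at 0.754, 59.1, 97.1, 0.285 and 9.95 CPM in CTL 1 to 5, 378, 527, 232, 2.56 and 1.48 in RED 1 to 5, and 376, 166, 1.79, 0.256 and 101 in GREEN 1 to 5. The 8 libraries low in Y-linked RNA held its 8 highest values, and within them RED 1, RED 2, RED 3, GREEN 1, GREEN 2 and GREEN 5 were above CTL 2 and CTL 3. Cyp4a10 was at 3.25, 262, 463, 2.28 and 26.4 CPM in CTL 1 to 5, 639, 279.9, 355, 10.9 and 7.39 in RED 1 to 5, and 215, 278, 4.97, 3.04 and 182 in GREEN 1 to 5. It was ordered by the Y-linked level in the same way, without the gap between injured and healthy. None of the 4 tested Cyp4a members passed in any comparison. The steadier members fell: Cyp4f14, which inactivates leukotrienes, was at 366 ± 124 CPM, 242 ± 44.5 CPM and 144 ± 33.0 CPM in CTL, RED and GREEN (log2 fold change -1.33, standard error 0.24, adjusted p = 0.00065 in GREEN versus CTL). Cyp4v3, a fatty acid hydroxylase, was at 846, 388, 432, 744 and 919.9 CPM in CTL 1 to 5, 442, 355, 274, 362 and 387 in RED 1 to 5, and 272, 234, 182, 138 and 148 in GREEN 1 to 5. GREEN lay wholly below RED, and only RED 1 of the RED samples reached into the range of CTL. CTL 2 and CTL 3, both low in Y-linked RNA, were the lowest CTL samples for Cyp4v3. Cyp4v3 was the one member that was lower in all comparisons, with log2 fold change -0.85, standard error 0.27, adjusted p = 0.043 in RED versus CTL, log2 fold change -0.94, standard error 0.27, adjusted p = 0.038 in GREEN versus RED and log2 fold change -1.79, standard error 0.27, adjusted p = 0.00019 in GREEN versus CTL. The call in RED versus CTL ended without CTL 1, 4 or 5, RED 2, 3, 4 or 5 or GREEN 2, 3, 4 or 5 (log2 fold change -0.91 to -0.73, adjusted p 0.051 to 0.13). The one in GREEN versus RED ended without CTL 5, RED 1, 4 or 5 or GREEN 3, 4 or 5 (log2 fold change -1.02 to -0.86, adjusted p 0.0501 to 0.1). Both calls also ended with library totals (log2 fold change -0.56 and -0.51, adjusted p 0.088 and 0.086). On the hepatocyte marker scale Cyp4v3 passed in none of the comparisons (log2 fold change -0.38 to -0.03, adjusted p 0.19 to 0.93).

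Most members that rose were of low level and are known mainly from cells other than hepatocytes. Of 7 such members 5 were tested: 3 rose in RED versus CTL (Cyp1b1, Cyp4b1 and Cyp4f18), 1 in GREEN versus RED (Cyp2s1) and 4 in GREEN versus CTL. Of all genes tested 14.2%, 9.68% and 29.5% rose in the same comparisons. Cyp4b1, a hydroxylase best known from lung (chr4:115624725-115647723, reverse strand), was at 1.35, 3.08, 1.57, 0.912 and 1.42 CPM in CTL 1 to 5, 11.0, 6.59, 17.8, 39.7 and 52.9 in RED 1 to 5, and 6.49, 8.49, 18.4, 15.6 and 7.33 in GREEN 1 to 5. Every injured sample exceeded every CTL sample, and RED 4 and RED 5 were highest (log2 fold change 3.91, standard error 0.59, adjusted p = 0.00061 in RED versus CTL; log2 fold change 2.73, standard error 0.57, adjusted p = 0.0016 in GREEN versus CTL). The latter did not pass without GREEN 3, GREEN 4 and GREEN 5 (log2 fold change 2.11, adjusted p = 0.081). The summed endothelial markers were 103, 179, 74.0, 55.1 and 122 CPM in CTL 1 to 5, 499, 521, 1016, 1813 and 2546 in RED 1 to 5 and 613, 660.2, 963, 996 and 473 in GREEN 1 to 5, again highest in RED 4 and RED 5. Summed macrophage markers were also highest in RED 4 and RED 5, at 129 to 188 CPM in CTL, 163 to 1862 in RED and 187 to 652 in GREEN. The part of endothelial cells, macrophages or other cells in the Cyp4b1 level was not tested.

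Cyp1b1, which oxidises oestrogens and aromatic hydrocarbons (chr17:79701537-79715061, reverse strand), was at 0, 0.026, 0, 0 and 0.059 CPM in CTL 1 to 5, 0.509, 0.389, 0.862, 1.00 and 6.22 in RED 1 to 5, and 1.22, 1.31, 4.69, 6.66 and 3.60 in GREEN 1 to 5. CTL held 3 counts in all, RED 265 and GREEN 871. The ratio of summed counts, scaled for library size, was 79.1 (95% interval 26.8 to 386) for RED over CTL and 182 (95% interval 61.9 to 882) for GREEN over CTL, intervals that cover counting error only. The test passed in both comparisons (adjusted p = 0.001 and 0.00011), the first not within experiment 1 alone (log2 fold change 8.57, adjusted p = 0.051). Summed stellate and matrix markers were 34.4, 78.7, 39.8, 37.8 and 64.8 CPM in CTL 1 to 5, 377, 309.6, 563, 828 and 1727 in RED 1 to 5 and 968, 848, 1414, 1894 and 2680 in GREEN 1 to 5. RED 5 and GREEN 3, GREEN 4 and GREEN 5 were highest in both measures. Cyp1a1, the most inducible target of the aryl hydrocarbon receptor, stayed under 1 CPM in all samples and passed in no comparison (adjusted p 0.27 to 0.87).

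Cyp2s1, an enzyme of epithelia (chr7:25802475-25816913, reverse strand), was at 0.026, 0.131, 0, 0 and 0.118 CPM in CTL 1 to 5, 0.042, 0.208, 0.216, 0.239 and 0.467 in RED 1 to 5, and 0.868, 1.67, 2.94, 5.07 and 4.40 in GREEN 1 to 5. Each GREEN sample exceeded each CTL and RED sample, GREEN 3, GREEN 4 and GREEN 5 most. It rose in GREEN versus RED (log2 fold change 3.56, standard error 0.68, adjusted p = 0.0043). This rise did not pass without GREEN 3, GREEN 4 and GREEN 5 (log2 fold change 2.20, adjusted p = 0.99) or within experiment 2 alone (log2 fold change 3.03, adjusted p = 0.069). Cyp2s1 also rose in GREEN versus CTL (adjusted p = 0.00014), where the ratio of summed counts was 45.7 (95% interval 24.7 to 95.7) from 10 counts in CTL. Summed biliary markers were 73.1, 32.4, 28.8, 144 and 315 CPM in CTL 1 to 5, 93.6, 152, 90.1, 268 and 437 in RED 1 to 5 and, as given above, highest in GREEN 3, GREEN 4 and GREEN 5. The part of biliary cells in the Cyp2s1 level was not tested. Cyp4f18, a leukotriene hydroxylase of neutrophils, had 2 counts in CTL, 55 in RED and 154 in GREEN, a ratio of 24.6 (95% interval 6.5 to 209) for RED over CTL and 48.1 (95% interval 13.1 to 401) for GREEN over CTL (adjusted p = 0.0046 and 0.0005). The first did not pass within experiment 1 alone (log2 fold change 4.17, adjusted p = 0.06) or experiment 2 alone (log2 fold change 3.50, adjusted p = 0.087). Summed neutrophil and lymphocyte markers were 0.945 to 3.29 CPM in CTL, 5.94 to 24.3 in RED and 6.90 to 37.0 in GREEN, with 4 of 12 markers (Ly6g, Cd79a, Nkg7 and Trbc2) at 0 throughout CTL; their part in the Cyp4f18 level was not tested.

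**Figure D5:**
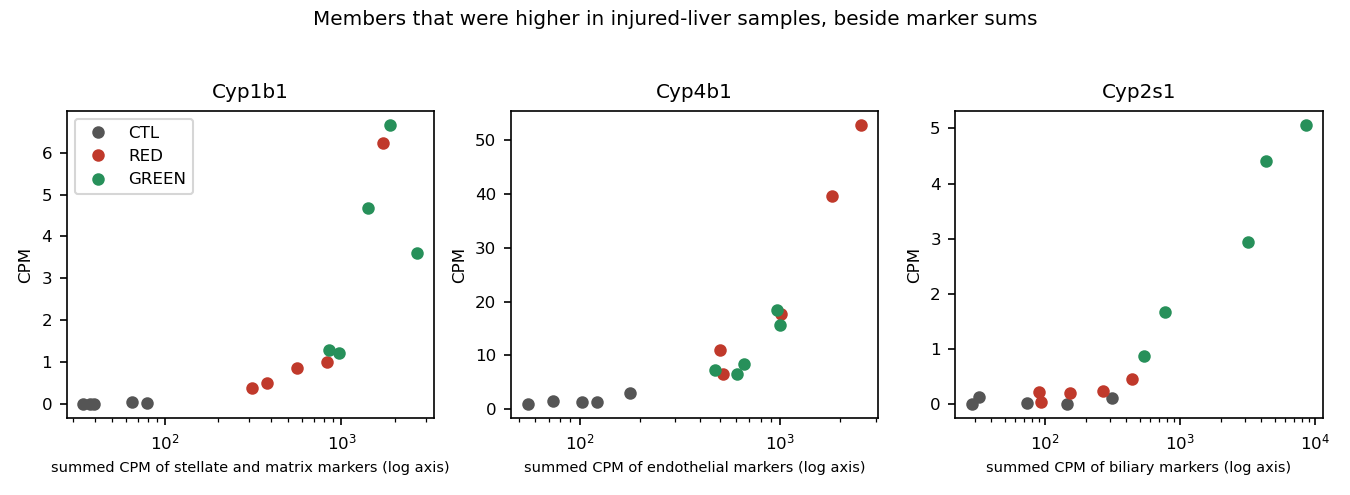
CPM of Cyp1b1, Cyp4b1 and Cyp2s1 (vertical axes) against the summed CPM of stellate, endothelial and biliary markers (horizontal log axes) in 15 samples, coloured by group. CTL samples are left of all others for stellate and endothelial markers. For biliary markers CTL 1, CTL 2 and CTL 3 are left of all others, and CTL 4 and CTL 5 lie among the RED samples. GREEN 4 is highest for Cyp1b1 (6.66 CPM) and Cyp2s1 (5.07 CPM) while RED 5 is highest for Cyp4b1 (52.9 CPM).

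Cyp4f16 and Cyp2t4 rose without being on that list. Cyp4f16 was at 3.17, 5.09, 4.29, 3.19 and 2.71 CPM in CTL 1 to 5, 8.70, 6.75, 6.39, 7.98 and 7.82 in RED 1 to 5, and 7.16, 6.17, 7.99, 10.9 and 11.4 in GREEN 1 to 5. Every injured sample exceeded every CTL sample (log2 fold change 1.01, standard error 0.20, adjusted p = 0.0026 in RED versus CTL; log2 fold change 1.21, standard error 0.20, adjusted p = 0.00035 in GREEN versus CTL). The first did not pass within experiment 2 alone (log2 fold change 0.94, adjusted p = 0.072), nor the second without GREEN 3, GREEN 4 and GREEN 5 (log2 fold change 0.83, adjusted p = 0.056). Cyp2t4 stayed under 1.5 CPM throughout and was higher in GREEN versus CTL (log2 fold change 1.64, standard error 0.60, adjusted p = 0.035), a call that ended without CTL 1, 3, 4 or 5, RED 1 or 4 or GREEN 1 or 5 (log2 fold change 1.27 to 1.56, adjusted p 0.051 to 0.093).

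Genes that serve P450 enzymes or control them fell beside the members in GREEN versus CTL, where 18.6% of all genes tested were lower and 29.5% higher. Of 16 electron partners and haem genes 11 were lower and 1, the haem-degrading Hmox1, was higher. Por, the electron donor of all members, was at 122, 306, 356, 166 and 175 CPM in CTL 1 to 5 and 209, 243, 89.99, 56.4 and 96.9 CPM in GREEN 1 to 5, overlapped between groups, and did not pass (log2 fold change -0.81, standard error 0.44, adjusted p = 0.14). Of 18 transcription factors and receptors 9 were lower, among them Nr1i3 (log2 fold change -1.85, adjusted p = 0.016), Nr1i2 (log2 fold change -1.0, adjusted p = 0.0069) and Ppara (log2 fold change -1.56, adjusted p = 0.02), and Nfe2l2 was higher. Ahr was not past the threshold, at 0.32 (adjusted p = 0.38). In RED versus CTL only Hmox1 and Nfe2l2 rose and Cyb5r3 fell among these genes, and in GREEN versus RED Pgrmc1 fell. Of all genes tested 14.2% rose and 1.99% fell in RED versus CTL, and 3.22% fell in GREEN versus RED.

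Counts were also summed by subfamily, which gave 19 testable sums. In GREEN versus CTL 11 sums were lower and 4 higher, in RED versus CTL 3 and 2, and in GREEN versus RED 2 and 1. Cyp1b, Cyp2e, Cyp2f, Cyp2r, Cyp2s, Cyp2t, Cyp2u, Cyp4b, Cyp4v and Cyp4x have a single member, so their sums repeat the test of that member. All sums called in GREEN versus RED, all higher in GREEN versus CTL and all but Cyp2a in RED versus CTL were such repeats. Of sums over several members, Cyp1a, Cyp2a, Cyp2c, Cyp2d, Cyp2j and Cyp4f were lower in GREEN versus CTL. In the fit of single genes 18.6% of all genes were lower and 29.5% higher in GREEN versus CTL. The shares were 1.99% and 14.2% in RED versus CTL, and 3.22% and 9.68% in GREEN versus RED. The Cyp2c sum of 15 members was 2730, 6417, 8536, 3851 and 2638 CPM in CTL 1 to 5, 2710, 1331, 2865, 1926 and 2437 in RED 1 to 5, and 1045, 2285, 928, 656 and 745 in GREEN 1 to 5. Every GREEN sum lay below every CTL sum, GREEN 2 being the nearest, and it was lower in GREEN versus CTL (log2 fold change -2.09, standard error 0.46, adjusted p = 0.0022). The Cyp2a sum was lower in RED versus CTL (log2 fold change -1.23, standard error 0.40, adjusted p = 0.049), a call near the threshold that no single Cyp2a member made. This sum was 716, 1423, 1810, 546 and 444 CPM in CTL 1 to 5 and 316 to 500 in RED. CTL 2 and CTL 3, both low in Y-linked RNA, were highest, and CTL 5 lay within the range of RED. The Cyp3a sum did not pass in any comparison (adjusted p 0.056 to 0.91), nor did Cyp2b (0.37 to 0.80) or Cyp4a (0.61 to 0.79).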

How the data were processed

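Hepatocyte RNA of 15 mouse samples was measured in 19 libraries, made from 150 ng of total RNA. The deposited tables hold the authors' estimated counts per gene, not normalized; kallisto 0.43.1 and GRCm38 are named in the submitters' processing notes. Kallisto divides reads among copies, so levels of close paralogs depend on that division, and the sources used here do not say whether strand was used or which annotation. Symbols came from GENCODE M21, which matched 99.0% of rows. Estimated counts were rounded to whole numbers, and CTL 5, RED 2, RED 3 and RED 4 entered with their experiment 2 library. edgeR 4.0.16 (R 4.3.3) was fitted with group and experiment as terms, filterByExpr and TMM, to all 16387 genes kept; the quasi-likelihood F test was adjusted by Benjamini-Hochberg at 0.05, and every adjusted p without another tool's name is from it. limma 3.58.1 (voom) and DESeq2 1.42.0 were alternatives. The procedure was checked on simulated counts. No label says that each sample came from its own animal, so p-values describe sample-to-sample spread, which may be technical.

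Any member may be named; full statistics were for members past the threshold (at most 20 a comparison, largest change first), the most abundant member per length of each subfamily and 12 well-known forms, and of other genes for those of the lists past the threshold (at most 4 a list) and Por, Nr1i3, Ahr, Nr1i2 and Ppara. Members and lists were chosen with earlier results of these data known. Same-numbered library codes pair RED 2 with GREEN 1, RED 3 with GREEN 2 and RED 4 with GREEN 3 within experiment 2 (correlations of deviations 0.55, 0.38 and 0.74), and these were taken as pairs. RED 5 and GREEN 5 had -0.19.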

Additional observations from a re-analysis of the deposited data

Results flagged for a closer look

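In 5 of 108 groups of 5 samples examined, the most extreme value lay far from the others for its group's range; chance alone picks out about 1 group in 20. Cyp1a1 was at 0.069 CPM in GREEN 5, the lowest of GREEN. Cyp1a2 was at 237.4 CPM in CTL 5, the lowest of CTL. Cyp1b1 was at 6.225 CPM in RED 5, the highest of RED, in the RED library with the highest sum of stellate and matrix markers. GREEN 2 was highest in GREEN for Cyp2c29 (898.7 CPM) and for Cyp2c69 (9.41 CPM). The gap was measured on the log2 scale after adding 0.5 CPM.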

How the results depend on the processing

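Counts of members past the threshold are given for settings that moved them by over 1.5 times; the cause was not tested. The 4 members higher in RED versus CTL were 2 within experiment 1 alone (11.8% of all genes) or experiment 2 alone (6.73% of all genes), and 4 with any 1 library left out. The 3 lower there were 1 with library totals, the hepatocyte marker scale, experiment 2 alone, the experiment 1 library of samples with 2, or limma-voom. They were 5 with a replicate block by title number, 6 with the Y-linked covariate, 8 with the 2 groups alone and 10 with DESeq2. They were 12 without GREEN 4 and GREEN 5, also when GREEN 3 was left out too, and 2 to 8 with 1 library left out. Of all genes 95, 44 and 282 of 16387 were lower with library totals, the hepatocyte marker scale and limma-voom. Experiment 2 alone gave 75 of 16816 and the experiment 1 library 212 of 15586. The title number block and the covariate gave 268 and 555 of 16387, the 2 groups alone 807 of 14793 and DESeq2 847 of 25631. Without GREEN 4 and GREEN 5 they were 894 of 16887, and without GREEN 3 too 1034 of 17280. The 1 higher in GREEN versus RED became 2 with library totals, no filter, experiment 1 alone or DESeq2, and 6 with the hepatocyte marker scale. Of all genes 4289 of 16387, 1560 of 25631, 3062 of 15778, 2425 of 25631 and 8823 of 16387 were higher in those settings. The 1 member became 0 with experiment 2 alone (76 of 16816 genes) or without GREEN 4 and GREEN 5 (268 of 16887 genes), with or without GREEN 3 (51 of 17280 without it). It stayed 1 with any 1 library left out. The 5 lower there were 0 under the same 3 settings and with the hepatocyte marker scale, and 1 with library totals or the 2 groups alone. They were 21 with experiment 1 alone, 16 with the experiment 1 library of samples with 2 or the Y-linked covariate, and 13 with DESeq2. A replicate block by library code gave 2 over all pairs and 10 over the 3 experiment 2 pairs, limma-voom gave 10, and leaving out 1 library 0 to 12. Of all genes 2289 of 15778 were lower with experiment 1 alone, 1738 of 15586 with the experiment 1 library and 94 of 15998 with the 2 groups alone. The covariate gave 1334 of 16387 and DESeq2 1449 of 25631. The block over all pairs gave 87 of 16387, the block over the experiment 2 pairs 967 and limma-voom 822. The 6 higher in GREEN versus CTL were 14 with the hepatocyte marker scale (83.5% of all genes), 3 without GREEN 3, GREEN 4 and GREEN 5 (9.87% of all genes), and 5 to 6 with 1 library left out. The 29 lower there were 15 with library totals or without GREEN 4 and GREEN 5, and 14 with experiment 2 alone. They were 10 without GREEN 3, GREEN 4 and GREEN 5, 4 with the hepatocyte marker scale and 22 to 32 with 1 library left out. Of all genes 467 of 16387 were lower with library totals, 1669 of 16887 without GREEN 4 and GREEN 5 and 816 of 16816 with experiment 2 alone. Without GREEN 3 too they were 471 of 17280, and with the hepatocyte marker scale 83 of 16387. Title numbers are only shared numbers, and a block by them left 28.

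Of subfamily sums, the 2 higher in RED versus CTL stayed 2 with any 1 library left out. The 3 sums lower there were 1 with library totals, and 0 with the hepatocyte marker scale, experiment 2 alone, the experiment 1 library of samples with 2, or limma-voom. They were 6 without GREEN 4 and GREEN 5 or with DESeq2, 5 without GREEN 3 as well, and 0 to 5 with 1 library left out. The 1 sum higher in GREEN versus RED became 3 with the hepatocyte marker scale, 0 with experiment 2 alone or without GREEN 4 and GREEN 5 (with or without GREEN 3), and stayed 1 with any 1 library left out. The 2 sums lower there were 0 under those 3 settings, with library totals and with the hepatocyte marker scale. They were 1 with a block by title number, a replicate block by library code over all pairs or the 2 groups alone, and 5 with the block of the experiment 2 pairs. They were 6 with limma-voom, 7 with the Y-linked covariate or DESeq2, 9 with the experiment 1 library of samples with 2, 10 with experiment 1 alone and 0 to 5 with 1 library left out. The 4 sums higher in GREEN versus CTL were 2 without GREEN 3, GREEN 4 and GREEN 5, and 3 to 4 with 1 library left out. The 11 lower there were 3 in that setting or with the hepatocyte marker scale, and 10 to 13 with 1 library left out.

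A turn of direction was counted only where the main fit or the other setting passed the threshold. On the hepatocyte marker scale such turns were seen in GREEN versus CTL for Cyp1a1 (log2 fold change 1.37), Cyp1a2 (0.22), Cyp2d10 (0.32), Cyp2j6 (1.14, and 0.33 with library totals), Cyp2r1 (0.11) and Cyp4f14 (0.056), and in GREEN versus RED for Cyp2r1 (0.03). Of the other values of single members, 2756 kept their side of the threshold, 227 no longer passed and 93 newly passed. Where neither fit passed, direction was not followed. Simulated counts for RED versus CTL over 16387 genes held 100 changes of log2 size 1 and 100 of log2 size 2. Of these 35% and 84% were recovered, with 8 false calls, so a member that did not pass may still differ. The simulation held no difference between experiments and few changed genes, whereas 16.2% of genes passed in the data. Its rates therefore need not hold for the data. The hepatocyte marker scale, leaving out GREEN 3, GREEN 4 and GREEN 5 together, and the block of the experiment 2 pairs were chosen after seeing the data.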

Other observations

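P450 genes outside the rule also followed the Y-linked level of the library. Cyp3a41a, a female-predominant copy of the Cyp3a cluster whose symbol ends in a further letter, was at 0.416, 3148, 7137, 2.62 and 0.236 CPM in CTL 1 to 5, 7.26, 2.05, 4.33, 0.215 and 1.01 in RED 1 to 5, and 2.15, 2.88, 0, 0 and 1.94 in GREEN 1 to 5. CTL 2 and CTL 3 held nearly all of it, and it was lower in RED versus CTL (log2 fold change -9.33, standard error 2.71, adjusted p = 0.029) and in GREEN versus CTL (log2 fold change -10.24, standard error 2.83, adjusted p = 0.0089). Cyp4a12a, a male-predominant fatty acid hydroxylase, was at 761, 0.183, 0.709, 745 and 978 CPM in CTL 1 to 5, 5.09, 6.91, 0.91, 405 and 288 in RED 1 to 5, and 4.82, 0.755, 198, 88.1 and 2.10 in GREEN 1 to 5. Its high libraries were those high in Y-linked RNA, in every group. Cyp7b1, a male-predominant hydroxylase of oxysterols, was at 529.6, 37.1, 35.8, 1199 and 717 CPM in CTL 1 to 5, 5.77, 8.54, 5.32, 136 and 78.0 in RED 1 to 5, and 6.37, 5.47, 75.9, 24.6 and 3.97 in GREEN 1 to 5. RED and GREEN lay below the matching CTL libraries on both sides of the Y-linked split, and the gene was lower in GREEN versus CTL (log2 fold change -4.49, standard error 1.37, adjusted p = 0.015). Cyp2g1, a member left out by the filter, was at 1.51, 6.95, 11.2, 0.285 and 0.148 CPM in CTL 1 to 5, 0.085, 0.13, 0.263, 0.191 and 0.117 in RED 1 to 5, and 0.165, 0.184, 0.037, 0.118 and 0.138 in GREEN 1 to 5, highest in CTL 2 and CTL 3.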
